A study of Rattus norvegicus with 8 samples.

Results

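Insl3 and Vsnl1 are known as products of the Leydig cells of the fetal testis, and their transcripts were compared between rat fetuses exposed to dibutyl phthalate (DBP) through the dam and fetuses of vehicle-dosed dams. The members are all probe sets that the platform's gene annotation gives to either symbol alone: 1 for Insl3 (1388241_at) and 2 for Vsnl1 (1368854_at and 1368853_at). These are 3 of the 31042 probe sets tested, and 2 of the 14217 genes with a single-symbol probe set. No filter on low values was applied, so all 3 probe sets were tested.

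The vehicle group (4 arrays) held testes of male Fischer 344 fetuses at gestational day 20 whose dams had received corn oil alone by gavage. The DBP group (4 arrays) held testes of fetuses of the same strain, sex and age whose dams had received 50 mg/kg of DBP, a plasticizer, in corn oil. Both groups were dosed once a day from gestational day 12 to 20, and testes were taken 6 h after the last dose. Whole testes were profiled on Affymetrix rat expression arrays, 1 array per sample, and the labels do not say which samples came from different dams, nor how many fetuses each sample holds. The p-values therefore measure only the spread between these samples, which may be technical, and the number of arrays limits their precision. Array medians lay between 6.08 and 6.13 on the log2 scale and RNA integrity numbers between 8.6 and 8.8. DBP replicates 3 and 4 stood apart from the other 6 arrays in the mean log2 signal of the added poly-A control transcripts (4.64 and 4.60 against 6.10 to 6.72) and in the SD over all probe sets (2.19 and 2.18 against 2.23 to 2.25). Values without these arrays are given beside the members' results.

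Insulin-like peptide 3, encoded by Insl3, is a small hormone of the insulin and relaxin family that Leydig cells secrete. It acts on its receptor RXFP2 in the gubernaculum, the ligament that draws the testis toward the scrotum, and male rodents without it have testes that do not descend. Its expression in Leydig cells is known to depend on nuclear receptors, SF-1 and the NR4A family among them. Vsnl1 encodes visinin-like protein 1, a calcium-binding protein of the neuronal calcium sensor family, which is anchored to membranes by a fatty acid when calcium is bound and is best known from neurons.

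Insl3 (Entrez gene 114215) lies on chromosome 16 at 18432668 to 18434539 of the GRCr8 assembly in RefSeq, and Vsnl1 (Entrez gene 24877) on chromosome 6 at 39757721 to 39878556. Because both members had lower signal after DBP, the 250 bases before the transcript start in RefSeq's promoter table are shown for both. Capitals mark matches on either strand to 9 short motifs that were searched. The first was AGGTCA, the half-site of nuclear receptors such as SF-1, COUP-TF and the NR4A factors. Its extended forms, CAAGGTCA for SF-1 and AAAGGTCA for NR4A factors, both contain it. The others were GATAA for GATA factors, TATAA for the TATA box, GGGCGG for Sp1 and KLF factors, CCAAT for the CCAAT box, TGACGTCA for CREB and TGANTCA for AP-1.
Insl3, chr16:18432939-18433188, plus strand: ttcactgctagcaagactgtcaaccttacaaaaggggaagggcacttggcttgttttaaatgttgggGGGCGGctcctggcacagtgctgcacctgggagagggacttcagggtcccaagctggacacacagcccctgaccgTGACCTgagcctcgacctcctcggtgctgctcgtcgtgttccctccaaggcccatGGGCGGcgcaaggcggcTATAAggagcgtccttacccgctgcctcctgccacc
Vsnl1, chr6:39878557-39878806, minus strand: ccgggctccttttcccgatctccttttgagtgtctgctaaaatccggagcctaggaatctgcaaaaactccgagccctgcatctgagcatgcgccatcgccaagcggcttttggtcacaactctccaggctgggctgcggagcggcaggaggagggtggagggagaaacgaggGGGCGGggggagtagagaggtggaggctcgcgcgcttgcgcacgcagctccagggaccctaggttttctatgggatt

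The Insl3 stretch held 1 AGGTCA, read on the opposite strand as TGACCT and ending 103 bases before the start, 1 TATAA 32 bases before the start and 2 GGGCGG, 48 and 178 bases before it. The Vsnl1 stretch held 1 GGGCGG, 72 bases before the start, and none of the other 8 motifs. Among the 33469 rat promoter stretches of this length, 14.1% held AGGTCA, 24.0% TATAA and 30.5% GGGCGG on either strand, so each of these matches is common. The G and C content was 61.2% for Insl3 and 60.8% for Vsnl1, against a median of 51.2% over all stretches. The Insl3 gene record starts 521 bases before the start used in this table, so other transcripts of the gene may begin elsewhere, and a match of letters does not show that a factor binds.

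Insl3 signal was lower in every DBP array than in any vehicle array, at 79.0% of the vehicle level on average, without passing the threshold over all probe sets. The log2 RMA values were 11.87, 11.79, 11.86 and 11.90 in vehicle replicates 1 to 4. They were 11.31, 11.59, 11.50 and 11.66 in DBP replicates 1 to 4. The highest DBP array lay 0.13 below the lowest vehicle array, and DBP replicate 1 was the lowest of all. The group means were 11.86 ± 0.046 and 11.52 ± 0.15 (SD, n = 4 arrays each). DBP minus vehicle was thus -0.34 ± 0.077 (SE) on the log2 scale, with a 95% confidence interval of -0.51 to -0.17. This is 1.27-fold lower, with an interval of 1.12-fold to 1.43-fold. In limma's moderated test across all probe sets the Benjamini-Hochberg adjusted p was 0.0732 (unadjusted 0.00123), above the threshold of 0.05. In that test 1.07% of all probe sets passed, and 0.648% passed as lower. Groups without overlap and lower after DBP were seen for 5.26% of all probe sets, and 2.68% lay at least as far below vehicle as Insl3. The spread of Insl3 was wider after DBP, with a range of 0.35 over the 4 arrays against 0.11 in vehicle. These are bulk samples, in which fewer Leydig cells and less Insl3 RNA per cell cannot be told apart.

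Vsnl1 signal also lay lower in all 4 DBP arrays, at both of its probe sets, and neither passed. At 1368854_at, the brighter one, the log2 RMA values were 5.31, 5.27, 5.11 and 4.97 in vehicle replicates 1 to 4 and 4.43, 4.60, 4.89 and 3.93 in DBP replicates 1 to 4. The groups did not overlap, but the gap between them was only 0.08, and DBP replicate 4 was the lowest array. The means were 5.17 ± 0.16 and 4.46 ± 0.40 (SD, n = 4 arrays each). The log2 change was -0.70 ± 0.17 (SE; 95% interval -1.08 to -0.32; limma adjusted p = 0.0888), which is 1.63-fold lower. At 1368853_at the values were 4.39, 4.11, 4.03 and 3.97 in vehicle and 3.78, 3.71, 3.83 and 3.59 after DBP. There the change was -0.40 ± 0.094 (SE; 95% interval -0.61 to -0.19; limma adjusted p = 0.081), with a gap of 0.14 between the groups. By size of change alone, 0.151% of all probe sets lay at least as far below vehicle as 1368854_at. By p-value in limma's test it stood at rank 684 of the 31042 probe sets, and 1368853_at at rank 631. Groups without overlap and lower after DBP were seen for 5.26% of all probe sets.

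**Figure D1:**
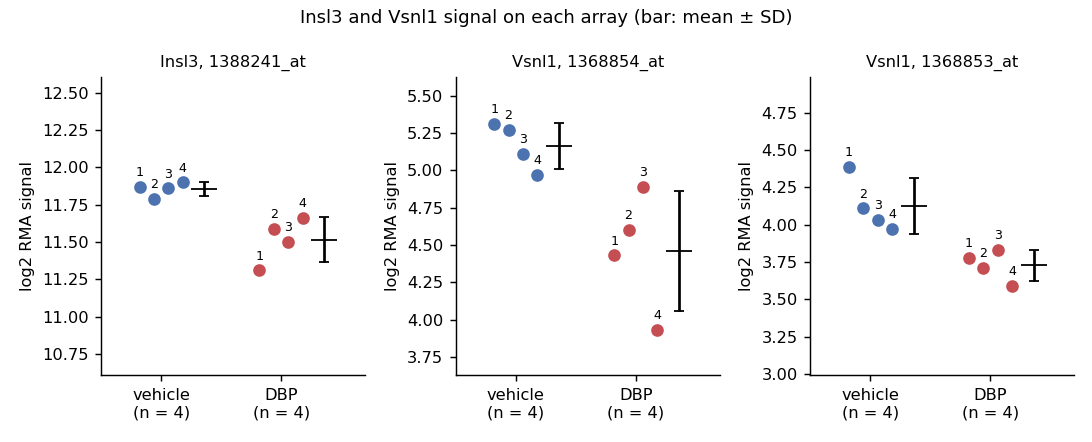
Log2 RMA signal on each array for the Insl3 probe set and the 2 Vsnl1 probe sets, on axes that each span 2 log2 units; points are arrays numbered by replicate and bars are the mean ± SD of 4 arrays. All DBP points lie below all vehicle points in each panel, by 0.13, 0.08 and 0.14 at the closest, and DBP replicate 4 is the lowest for Vsnl1 but the highest DBP array for Insl3.

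Both Vsnl1 probe sets were dim. The signal of 1368853_at was under the array's lower quartile (4.23 to 4.38 over the arrays) on 7 of 8 arrays, and that of 1368854_at was under the array median on all 8 and under the lower quartile on 1, DBP replicate 4. RMA values this low carry a large share of background signal, and no detection calls were used here. Within each array 1368854_at exceeded 1368853_at by 0.92 to 1.16 in vehicle. The excess was 0.65, 0.89, 1.06 and 0.34 in DBP replicates 1 to 4. It was thus below every vehicle value in DBP replicates 1, 2 and 4 and within the vehicle range in replicate 3.

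The members did not order the DBP arrays alike. Relative to the vehicle mean, Insl3 stood at 68.5%, 83.2%, 78.2% and 87.4% in DBP replicates 1 to 4. Vsnl1 at 1368854_at stood at 60.1%, 67.6%, 82.7% and 42.5% of its vehicle mean in the same arrays. DBP replicate 4 was thus the least shifted for Insl3 and the most shifted for Vsnl1. The difference in log2 change between the members (Vsnl1 minus Insl3) was -0.36, and its 2-sided exact permutation p over the 8 arrays was 0.2, so a larger shift of Vsnl1 was not shown. Without DBP replicate 4 that difference was -0.14 (exact permutation p = 0.4).

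The calls differed between settings, while the direction did not. Insl3 passed in DBP replicates 1 and 2 against vehicle (-0.41, limma adjusted p = 0.0499) and in replicates 3 and 4 against vehicle (-0.28, adjusted p = 0.0395), where 1.86% and 13.3% of all probe sets passed. It also passed with a trend and robust prior, with array weights (1.49% and 1.51% of all probe sets passed there) and without DBP replicate 4 (-0.39, adjusted p = 0.0425, with 1.2% of all probe sets past the threshold). Vsnl1 at 1368854_at passed in DBP replicates 1 and 2 (-0.65, limma adjusted p = 0.0221) and not in replicates 3 and 4 (-0.76, adjusted p = 0.0598). Leaving out each array in turn gave changes of -0.39 to -0.27 for Insl3 and -0.85 to -0.53 for Vsnl1, the latter smallest in size without DBP replicate 4. With a term for the 2 arrays of low spike-in signal the changes were -0.41 for Insl3 (adjusted p = 0.0608) and -0.65 for Vsnl1 (adjusted p = 0.213).

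**Figure D2:**
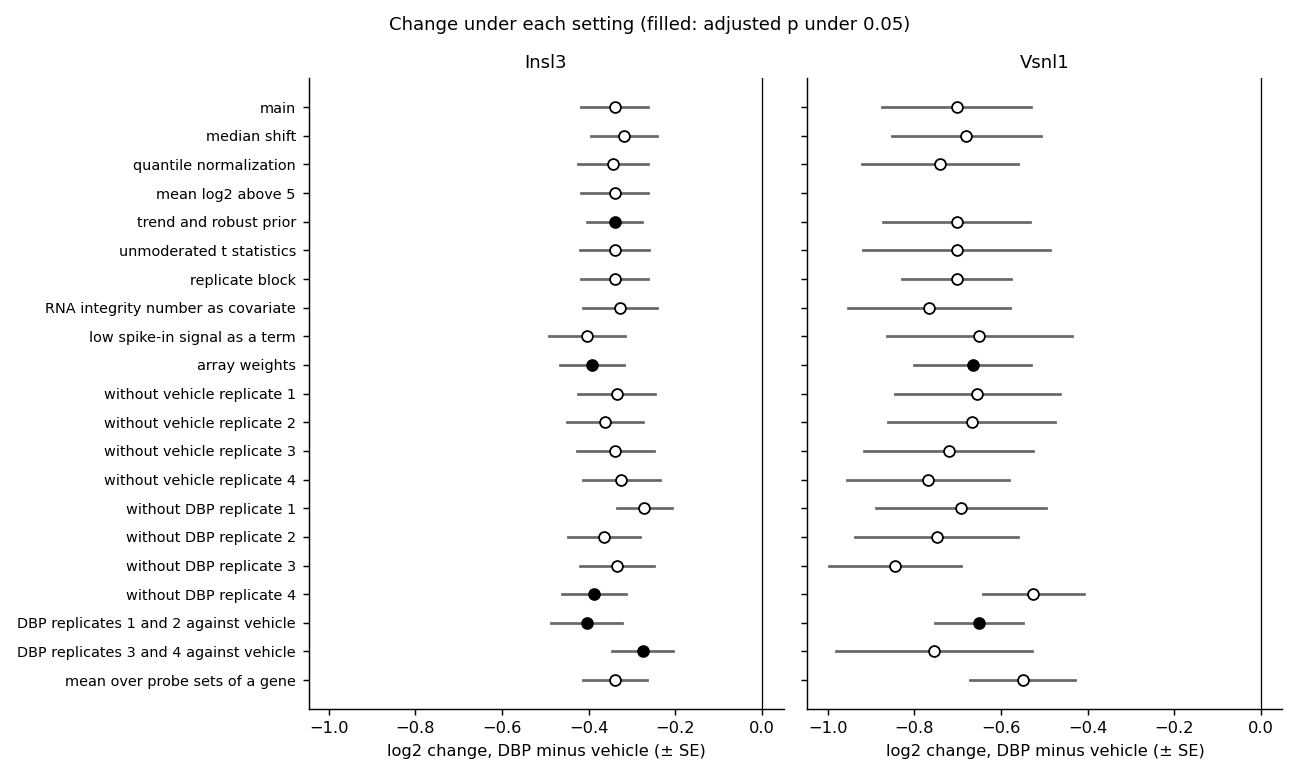
Log2 change (DBP minus vehicle, ± SE) of Insl3 and of Vsnl1 at 1368854_at (bottom line: the mean of its 2 probe sets; no value above a mean of 5) under the main analysis and each alternative; filled points have a limma adjusted p under 0.05. All points lie below 0, most of them open, between -0.41 and -0.27 for Insl3 and between -0.85 and -0.53 for Vsnl1.

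Steroid hormone synthesis is the other main activity of these cells, and its genes served as a reference on the same array. The reference was the mean log2 value of Star (cholesterol transport into mitochondria), Cyp11a1 (side-chain cleavage), Cyp17a1 (the 17-hydroxylase and lyase of androgen synthesis), Hsd3b1 (the 3-beta-hydroxysteroid dehydrogenase) and Scarb1 (the HDL receptor). It was 11.89, 11.83, 11.90 and 11.81 in vehicle replicates 1 to 4 and 11.83, 12.03, 11.91 and 11.83 in DBP replicates 1 to 4, so the groups overlapped. Relative to it, Insl3 stood at -0.016, -0.038, -0.040 and 0.086 in vehicle and at -0.52, -0.44, -0.41 and -0.17 after DBP, with no overlap. The change of this log2 difference was -0.38, with a 2-sided exact permutation p of 0.0286, the smallest that 4 against 4 arrays allow. Groups without overlap and lower on this relative scale were seen for 6.58% of all probe sets. Relative Vsnl1 was -6.58, -6.56, -6.79 and -6.84 in vehicle and -7.40, -7.43, -7.02 and -7.90 after DBP, a change of -0.75 (exact permutation p = 0.0286). Only the change between groups is read here, since the level of 1 probe set against another has no meaning.
The choice of reference mattered for size. With Cyp11a1 alone, itself lower by 0.13 on the log2 scale without passing, the relative change was -0.22 for Insl3 (exact permutation p = 0.0286) and -0.58 for Vsnl1 (0.0571). With the first reference, both exact permutation p-values were 0.0571 without any 1 of the vehicle arrays. The groups still did not overlap there, since leaving out an array cannot make them overlap.

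**Figure D3:**
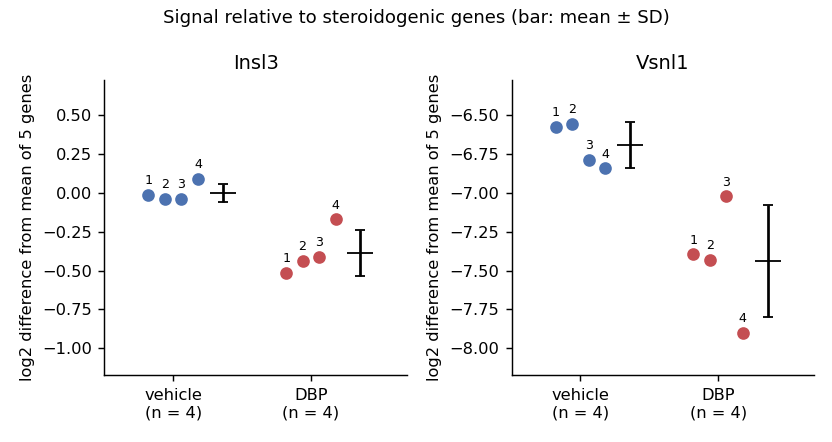
Log2 signal of Insl3 and of Vsnl1 (1368854_at) minus the mean log2 signal of Star, Cyp11a1, Cyp17a1, Hsd3b1 and Scarb1 on the same array; points are arrays numbered by replicate and bars are the mean ± SD of 4 arrays. The DBP arrays lie between -0.52 and -0.17 for Insl3, below all vehicle arrays, and between -7.90 and -7.02 for Vsnl1, below all vehicle arrays.

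Of 20 listed genes of fetal Leydig cells 18 were measured, and 0 passed limma's test over all probe sets, where 1.22% of all genes passed. Their median change was 0.02, the same as the 0.02 of all genes. Of the 18, 5 lay lower and 4 higher with unadjusted p-values below 0.05, where 7.84% of all genes did so lower and 11.3% higher. In DBP replicates 1 and 2 alone, where 1.86% of all probe sets passed, 2 of the 18 passed as lower, Insl3 and Vsnl1 themselves. The same 2 passed with array weights (1.51% of all). With a trend and robust prior (1.49% of all) and in DBP replicates 3 and 4 alone (13.3% of all), Insl3 passed as lower. In each of these 2 settings 1 other gene passed, as higher. With RNA integrity as a covariate, where 368 of 31042 probe sets passed, 1 gene passed as lower, and neither member passed. Of the 5 lower by unadjusted p, those beside Insl3 and Vsnl1 were receptors. Lhcgr, the receptor for luteinizing hormone, was at 10.33, 10.25, 10.36 and 10.22 in vehicle and 9.99, 10.21, 9.99 and 10.14 after DBP, a change of -0.21 ± 0.069 (SE; adjusted p = 0.17). Prlr, the prolactin receptor, gave -0.38 ± 0.14 (adjusted p = 0.211) and Pdgfra, a platelet-derived growth factor receptor of the interstitium, -0.14 ± 0.059 (adjusted p = 0.26). The 4 higher ones were enzymes or their electron carrier: Hsd11b1, of glucocorticoid metabolism (0.28 ± 0.079), Hsd17b3, the last step to testosterone (0.20 ± 0.075), Fdx1, which passes electrons to Cyp11a1 (0.18 ± 0.060), and Hsd3b1 (0.17 ± 0.056). Dlk1 (0.12) and Nr5a1, which encodes SF-1 (0.04), had intervals that spanned 0. These values are from the brightest probe set of each gene. On that basis Vsnl1 had the lowest change among these 18 genes, Prlr the next and Insl3 the third. The order depended on this choice. A dimmer probe set of Lhcgr gave -0.495 (limma adjusted p = 0.274), lower than Prlr and Insl3. Dimmer ones of Prlr gave -0.38 and 0.015, and that of Vsnl1 gave -0.40. None of these passed.

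**Figure D4:**
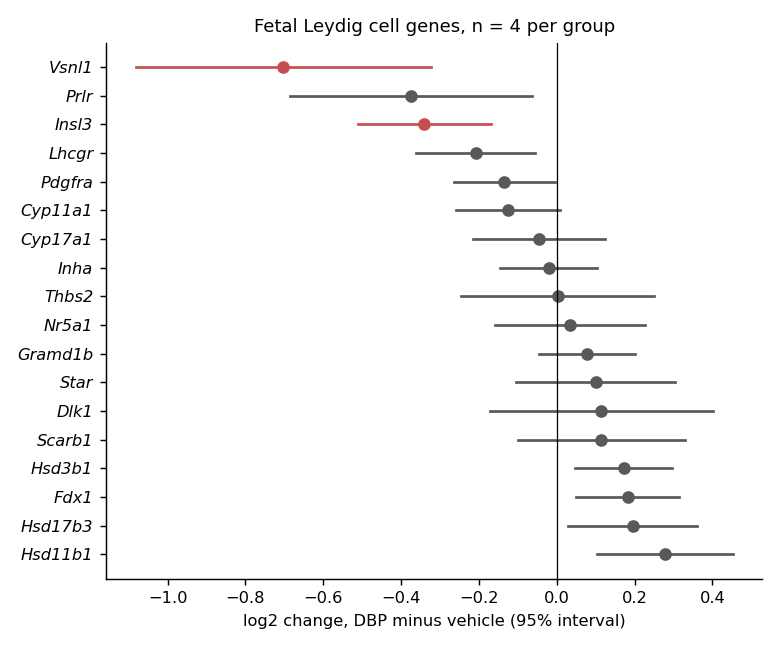
Log2 change (DBP minus vehicle) with its 95% interval from limma for the 18 measured fetal Leydig cell genes, n = 4 arrays per group. Each gene is shown at its brightest probe set, with Insl3 and Vsnl1 in red. The 2 members lie at -0.34 and -0.70, Star, Cyp17a1 and Scarb1 have intervals that include 0, and Hsd11b1 lies highest at 0.28.

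Of 9 listed peptides and receptors of the relaxin family, Insl3 among them, 4 were measured and 0 passed, where 1.22% of all genes did. Rln1, relaxin itself (0.03), and Rln3, its relative in the brain (0.08), did not pass. Insl6, an insulin-like peptide of male germ cells, was at 5.37, 5.18, 5.24 and 5.45 in vehicle and 5.48, 5.40, 5.58 and 7.02 after DBP, with DBP replicate 4 far above the other 7 arrays (change 0.56 ± 0.30, SE; adjusted p = 0.345). Rxfp2, the receptor of the hormone, and 4 others of this list have no value from a single-symbol probe set and were not analysed here. Of 15 measured prohormone processing enzymes, which cut and trim secreted peptides, 0 passed and 0 had an unadjusted p under 0.05. Among all genes 7.84% had such a p as lower and 11.3% as higher. The lowest unadjusted p-values were those of Cpd, a carboxypeptidase (-0.43), Mme, the cell-surface peptidase neprilysin (-0.22), Sec11c, a signal peptidase subunit (0.16), and Cpe, carboxypeptidase E (0.15). A dimmer probe set of Cpd went the other way (0.17) and did not pass.

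Among the 13 genes of the neuronal calcium sensor family, to which Vsnl1 belongs, 0 passed, where 1.22% of all genes did. Vsnl1 was the only one of the 13 with an unadjusted p under 0.05 in the lower direction. In the higher direction 4 had such a p, where 7.84% of all genes had one as lower and 11.3% as higher. These were Rcvrn, the photoreceptor protein recoverin (0.27 ± 0.076, SE; adjusted p = 0.119), Kcnip3 (0.21) and Kcnip2 (0.14), subunits of potassium channels, and Hpca, hippocalcin (0.18). Hpcal1, a close relative of Vsnl1, gave -0.02 with a 95% interval of -0.18 to 0.14. The median of the family was 0.03.

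Of 19 listed transcription factors (nuclear receptors, GATA, KLF and AP-1 factors, several of them linked to the promoter of Insl3) 18 were measured. Of these 1 passed as higher and 0 as lower, where 1.22% of all genes passed in either direction. Nr4a1, which encodes the orphan nuclear receptor Nur77, a known activator of Insl3 transcription in cultured Leydig cells, was at 7.52, 7.30, 7.09 and 6.90 in vehicle and 8.15, 8.38, 8.08 and 8.85 after DBP. It rose by 1.16 ± 0.17 on the log2 scale (SE; adjusted p = 0.0132), opposite in sign to Insl3, and its call was lost without vehicle replicate 3 (adjusted p = 0.0604). DBP replicate 4 had the highest Nr4a1 and the lowest Vsnl1 value of the series, while Insl3 in that array was the closest to vehicle of the DBP arrays. Nr4a3, a relative of Nr4a1, gave 0.96 ± 0.20 (adjusted p = 0.0548). Nr5a1 (0.04), Nr2f2, which encodes the repressor and activator COUP-TFII (-0.10), and Nr0b1, which encodes the repressor DAX1 (-0.16), did not pass. All these values are from the brightest probe set of each gene. Dimmer ones gave 0.65 and 0.09 for Nr4a3, -0.075 for Nr5a1, and -0.155 and -0.33 for Nr2f2, and none of these passed. Unadjusted p-values below 0.05 were seen for 4 of the 18 as higher and 2 as lower (11.3% and 7.84% of all genes). The higher ones beside Nr4a1 and Nr4a3 were Gata1 (0.36) and Junb (0.42), and the lower ones were Gata4 (-0.15), of the GATA factors of Leydig and Sertoli cells, and Jun (-0.23), of AP-1. At dimmer probe sets Gata4 gave -0.36 and Jun -0.12 and -0.25. The median of the list was 0.00.

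Genes whose 8 values followed those of each member most closely were found by the root-mean-square distance between log2 values centred on the mean of all 8 arrays. This choice itself favours genes with the member's direction and array order, so neither is a separate finding about them. For Insl3, whose own values scattered by 0.20 around their mean, the closest of all other genes were Tada2b (0.045), Aldh2 (0.058), Rexo1 (0.059), Dst (0.063) and Cdh23 (0.064). Tada2b, a subunit of a histone acetylation complex, was at 7.82, 7.85, 7.92 and 7.90 in vehicle and 7.37, 7.68, 7.48 and 7.68 after DBP. It thus had DBP replicate 1 lowest, as Insl3 did, with a change of -0.32. Aldh2 is the mitochondrial aldehyde dehydrogenase (-0.29) and Cdh23 a cadherin (-0.41). Rexo1 gave -0.31 and Dst -0.325, so all 5 genes lay lower after DBP. Cdh23 alone passed (limma adjusted p = 0.0372), where 1.22% of all genes did. Among the 8 analyses that leave out 1 array, it kept its call only without DBP replicate 2 or without DBP replicate 4 (adjusted p up to 0.127). Its call was also lost with the replicate block (0.064), with RNA integrity as a covariate (0.0695) and with the term for low spike-in signal (0.0707).

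For Vsnl1, whose values scattered by 0.44, the closest genes were Tgfa (0.14), Mrap (0.14), Ntf3 (0.18), Shisa8 (0.19) and Stc2 (0.19). Tgfa, a ligand of the EGF receptor, was at 8.70, 8.67, 8.70 and 8.69 in vehicle and 7.94, 8.15, 8.22 and 7.66 after DBP. Like Vsnl1, as the choice by closeness favours, it was lowest in DBP replicate 4 and highest among the DBP arrays in replicate 3. It fell by 0.70 on the log2 scale (limma adjusted p = 0.0149). Mrap, which brings melanocortin receptors to the cell surface, fell by 0.61 (adjusted p = 0.029), Shisa8 by 0.69 (adjusted p = 0.00848) and Stc2, a stanniocalcin, by 0.58 (adjusted p = 0.00746). Ntf3, the growth factor neurotrophin 3, gave -0.42 and did not pass. In that test 1.22% of all genes passed, but these genes were chosen for their closeness to a lowered gene. Shisa8 and Stc2 kept their calls without any 1 array. Leaving out any single vehicle array ended the call of Tgfa, with an adjusted p of at most 0.0667. The call of Mrap ended in those same 4 analyses and without DBP replicate 1, with an adjusted p of at most 0.116, and with the term for low spike-in signal (0.0612). With unmoderated t statistics, under which 74 of all probe sets passed, the calls of Cdh23, Tgfa, Mrap, Shisa8 and Stc2 and those of Nr4a1 and Plvap ended. Insl3 stood at rank 806 among the genes closest to Vsnl1, and Vsnl1 at rank 13734 among those closest to Insl3. The distance between both was 0.36. It is not scaled, so the wider scatter of Vsnl1 (0.44 against 0.20 for Insl3) adds to it. The ranks therefore do not show that the members moved in unlike directions.

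**Figure D5:**
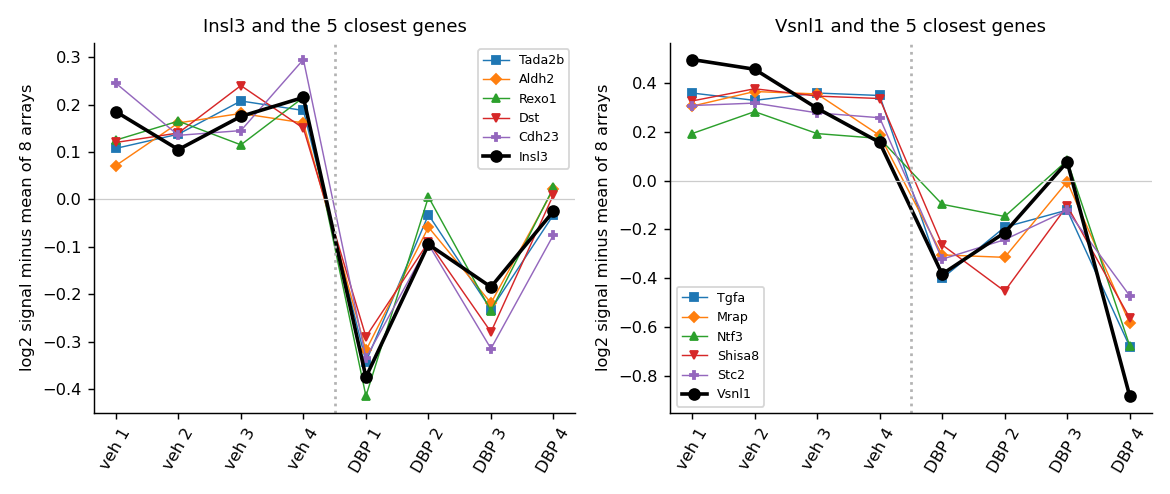
Log2 signal minus the gene's mean over the 8 arrays for Insl3 (left) and Vsnl1 at 1368854_at (right), in black, with the 5 genes of smallest root-mean-square distance to each; lines join arrays only to guide the eye. Insl3 and its neighbours dip most in DBP replicate 1 and Vsnl1 and its neighbours in DBP replicate 4, with the neighbours chosen for this closeness. The distances are 0.045 to 0.064 for the genes on the left and 0.14 to 0.19 for those on the right.

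The protein-coding genes next to the members on the chromosome showed no such difference where they were measured. Jak3, a kinase of cytokine receptors that lies just before Insl3, averaged 6.21 in vehicle and 6.23 after DBP (log2 change 0.03 ± 0.060, SE; adjusted p = 0.847). Smc6, a subunit of a chromosome maintenance complex that lies before Vsnl1, averaged 9.50 and 9.49 (-0.01 ± 0.059; adjusted p = 0.943). B3gnt3, whose gene record overlaps that of Insl3 by 426 bases, and Rad51ap2 after Vsnl1 were not analysed here for lack of a single-symbol probe set.

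Markers of other cell types were summarised by the mean log2 value of each list on each array. In the main test 1.22% of all genes passed the threshold. Sertoli cell markers (9 of 12 measured) averaged 9.21 to 9.28 in vehicle and 9.33 to 9.48 after DBP, so the DBP range lay above the vehicle range, with 0 members past the threshold. Within that list Inhbb, the inhibin beta B subunit, lay the other way, at 11.10, 11.06, 11.17 and 11.11 in vehicle and 10.59, 10.94, 10.77 and 10.74 after DBP (-0.35 ± 0.075, SE; limma adjusted p = 0.0614). With array weights (1.51% of all probe sets passed) 1 member of the list passed, as lower. The same held with dim probe sets left out (376 of 19928). With the term for low spike-in signal (438 of 31042), or in DBP replicates 1 and 2 alone (1.86%), 1 passed, as higher. With a trend and robust prior (1.49%) 2 passed, 1 of them as lower. Without DBP replicate 2 (606 of 31042) 3 passed, 1 of them as lower. In DBP replicates 3 and 4 alone (13.3%) 4 passed, 1 of them as lower. The Sertoli cell hormone Amh was at 12.65, 12.63, 12.73 and 12.65 in vehicle and 12.45, 12.59, 12.65 and 12.78 after DBP. Stroma (10 of 11) averaged 11.36 to 11.47 and 11.14 to 11.47, myoid cells (7 of 7) 9.38 to 9.62 and 9.49 to 9.80, and germ cells (4 of 8) 7.27 to 7.33 and 7.18 to 7.40. Endothelium (8 of 9) averaged 7.68 to 7.72 and 7.68 to 7.80, where Plvap, of the endothelial diaphragm, rose (0.36, limma adjusted p = 0.0471), a call lost without any single vehicle array and without DBP replicate 3 (adjusted p up to 0.142). That call was also lost with the term for low spike-in signal (0.27, adjusted p = 0.125), in DBP replicates 1 and 2 alone (0.27, 0.0673), with RNA integrity as a covariate (0.0856) and with the replicate block (0.0971). Macrophages (10 of 10) averaged 6.13 to 6.27 and 6.19 to 6.38, erythroid cells (8 of 10) 7.68 to 8.02 and 7.88 to 8.34, and mesonephric duct (7 of 8) 4.97 to 5.27 and 5.14 to 5.29. Of the 8 erythroid genes 0 passed in the main analysis. In DBP replicates 1 and 2 alone 4 of them passed, as higher, where 1.86% of all probe sets did. With the term for low spike-in signal 4 passed as well, as higher, where 438 of 31042 did. Adrenal genes (7 of 9) averaged 5.78 to 5.84 and 5.66 to 5.83. The defining enzymes Cyp11b1 (4.87 to 5.87 over all arrays) and Cyp21a1 (4.31 to 4.74) were dim. Mrap was the 1 member past the threshold, as lower. By unadjusted limma p under 0.05, 2 of the 7 lay lower and 2 higher, against 7.84% and 11.3% of all genes. The fetal Leydig cell list, with Insl3 and Vsnl1 included, averaged 9.84 to 9.92 in vehicle and 9.77 to 9.88 after DBP. The members' own lower values are part of these averages. Without the members, the median of the list on each array was 10.435 to 10.65 in vehicle and 10.375 to 10.66 after DBP. The part of these lists in the members' lower signal was not tested.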

How the data were processed

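Total RNA of 8 fetal rat testis samples had been hybridised to Affymetrix arrays, 4 per group. Each array gives 1 deposited log2 value for a probe set. RMA is the tool the submitters' processing notes name, so per the submitters' processing notes the authors made these values with it (version not given in the sources used here). RMA equalises the distribution of values between arrays and compresses changes of dim probe sets. Of 31099 probe sets 57 Affymetrix controls were set aside. Genes were named from the platform annotation: 20826 probe sets had 1 symbol, 436 several and 9780 none. A gene was represented by its brightest probe set, by the mean of all 8 arrays. No pair of arrays was identical, and correlations between arrays were 0.991 to 0.998.

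DBP and vehicle were compared by limma 3.58.1 under R 4.3.3, 2-sided and without its trend and robust options. All 31042 probe sets entered the Benjamini-Hochberg adjustment, with 0.05 as threshold. Adjusted p-values are from limma throughout. Per-array differences were compared with exact permutation tests over 70 relabellings. Scripts used Python 3.11.15, pandas 2.3.3 and matplotlib 3.10.9. The fit was tested on simulated data, and the permutation test on made-up values with a known result. The members and lists were chosen with earlier results of these data known. Named were the members, the 5 genes closest to each, list members past the threshold or up to 4 with the smallest unadjusted p for the lists on Insl3, Vsnl1 and the Leydig cell, and a fixed set of steroidogenic and regulator genes. Fdx1, Hsd17b3, Prlr, Pdgfra, Hpca, Hpcal1, Gata4, Jun, Inhbb, Dlk1, Amh, Cyp11b1, Cyp21a1 and the chromosomal neighbours were named besides this rule, after their values were seen. Promoter stretches and gene positions come from RefSeq (GRCr8). Alternatives covered normalization, dim probe sets, the variance prior, covariates, array weights, array subsets, probe set means and reference genes.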

Additional observations from a re-analysis of the deposited data

Results flagged for a closer look

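Among 106 groups of 4 arrays checked (53 probe sets of the members and named genes, each in vehicle and DBP), 3 had 1 array far from the other 3, where chance gives about 1 in 20 groups. Insl6 was at 7.02 in DBP replicate 4 and at 5.40 to 5.58 in the other DBP arrays. Nr0b1 was at 9.55 in vehicle replicate 3 and at 9.46 in each of the other vehicle arrays. Jun was at 9.46 in vehicle replicate 3 and at 9.10 to 9.16 in the other vehicle arrays. No group of Insl3 or of either Vsnl1 probe set met this criterion.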

How the results depend on the processing

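The changes of Insl3 and of both Vsnl1 probe sets stayed below 0 in all alternatives run. Insl3, not past the threshold in the main analysis, passed with a trend and robust prior (-0.34, limma adjusted p = 0.0211), with array weights (-0.39, 0.0285), with the first 2 DBP arrays alone (-0.41) and with the last 2 alone (-0.28), 4 of 12 alternatives beside leaving out arrays (adjusted p 0.0211 to 0.171), and in 1 of 8 with an array left out (-0.39 to -0.27, 0.0425 to 0.202). Vsnl1 at 1368854_at passed with array weights (-0.67, 0.0391) and in DBP replicates 1 and 2 (-0.65), 2 of 11 (0.0221 to 0.235), and in none with an array left out (-0.85 to -0.53, 0.0502 to 0.228); it was below the filter of a mean above 5 and has no value there. The second probe set, 1368853_at, passed in none (adjusted p 0.0564 to 0.201). Samples that share a replicate number did not deviate together (correlations 0.11, -0.08, 0.10 and -0.02), so the numbers are not taken as pairs. With the replicate block the values were -0.34 for Insl3 (adjusted p = 0.111) and -0.70 for Vsnl1 (0.0619), so the pairing changed no call of either, and 175 probe sets passed against 331. The count of probe sets past the threshold was 74 with unmoderated statistics, 577 in DBP replicates 1 and 2, 4129 in replicates 3 and 4, and 82 to 606 with an array left out; its split was 158 higher and 159 lower after median shift, against 130 and 201. With each array left out the changes relative to steroidogenic genes were -0.45 to -0.34 for Insl3 and -0.88 to -0.59 for Vsnl1, and Vsnl1 minus Insl3 was -0.51 to -0.14. The relative changes lost their exact permutation call (0.0571) without any 1 vehicle array, though the groups still did not overlap. That of Vsnl1 was also lost with Cyp11a1 alone (-0.58). With 4 pairs the replicate block cannot go below 0.125. The cause of these changes of call was not tested. Dim signal limits Vsnl1, and 4 arrays per group limit both.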
